A study of Mus musculus with 5 samples.

Results

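The hnRNP and SR genes described here are the genes whose symbol, in the listed miRNA target sites of mouse liver, starts with Hnrnp or Srsf. There were 31 such symbols, 21 with Hnrnp and 10 with Srsf, out of 22714 symbols with a listed site in any library. Of the 31, 29 were listed in all 5 libraries. Hnrnph3 was missing from the e15.5 and e18.5 libraries, and Hnrnpa1l2-ps, a pseudogene by its name, was not listed at P7 or Adult. The livers came from C57BL/6 mice (C57BL/6J in the methods) of 3 embryonic ages (e12.5, e15.5 and e18.5, in days after conception), of postnatal day 7 (P7) and of 6 to 8 weeks (Adult). RNA bound by Argonaute (Ago), the protein that carries miRNAs, was crosslinked with 3 exposures to 254 nm light and recovered by Ago HITS-CLIP. Antibodies to Ago2 were used at every stage, and an antibody to Ago1 was added for the P7 and Adult livers, so that an effect of the antibody and one of birth cannot be told apart. The labels give 1 sample and 1 table per stage, called a library here. The methods speak of biological replicates, and a supplement names a second e18.5 library, but the labels and the tables used here do not mark any, so each difference below is a difference between 2 libraries and carries no p-value.

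Each table lists Ago clusters, which are stretches of overlapping reads, and within them the positions that match the seed of a miRNA. The level of a gene is the sum of the read numbers of its clusters divided by that sum over all clusters of the library, given per 1000000 such reads and written as rpm. The libraries held 76948 to 208193 clusters and 13008703 to 44867326 summed cluster reads, and no cluster with fewer than 5 reads was listed. The 8 hepatocyte markers looked up (among them Alb and Apob) were listed in every library, with a summed level of 996 rpm at e12.5 and 10928 in Adult. The 11 erythroid markers listed, globins included, summed to 66824, 90564, 96509, 34613 and 1639 rpm from e12.5 to Adult. Afp, the fetal hepatocyte marker, was listed in every library except Adult. In whole liver, fewer cells of a type and less RNA per cell cannot be told apart.

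Heterogeneous nuclear ribonucleoproteins (hnRNPs) coat nascent transcripts, and many of them repress the use of nearby exons. SR proteins carry a domain rich in arginine and serine, bind exonic enhancers and mostly promote exon use. Both families also act in RNA export, stability and translation, and several SR and hnRNP genes limit their own output by splicing in exons that send the transcript to nonsense-mediated decay (NMD). The fetal liver is a blood-forming organ before it becomes a metabolic one, and splicing patterns of hepatocytes change after birth.

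The sites shown first are those of the strongest clusters, since the values further on refer to them. Lower-case letters give the listed target sequence from 5′ to 3′ in GRCm38, and capitals mark the bases listed as seed match, with the A opposite the first base of the miRNA where there is one. The mature miRNAs, from RefSeq (GRCm38.p6), have bases 2 to 8, the seed, in capitals. Coordinates are those of the listed seed match, counted from 1.
Hnrnpl, miR-122-5p, coding exon, chr7:28820646-28820652, plus strand: gaacaatcggttctcCACTCCA
Hnrnpa2b1, miR-27b-3p, coding exon, chr6:51466672-51466678, minus strand: aggagcccatgtgACTGTGAA
miR-27b-3p: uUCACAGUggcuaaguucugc
Hnrnpu, miR-125b-5p, coding exon, chr1:178329890-178329896, minus strand: ctacaaaaatcaatCTCAGGGc
miR-125b-5p: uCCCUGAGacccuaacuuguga
Srsf5, miR-26a-5p, coding exon, chr12:80946694-80946700, plus strand: ggatccgagatattgACTTGAA
miR-26a-5p: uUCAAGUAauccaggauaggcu
Srsf1, miR-30a-5p, coding exon, chr11:88049116-88049122, plus strand: gtatgttacgctgaTGTTTACc
miR-30a-5p: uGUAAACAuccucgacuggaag
Hnrnpf, miR-144-3p, 3′UTR, chr6:117925482-117925488, plus strand: gacacaatactaATACTGTA
miR-144-3p: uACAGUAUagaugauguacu
Hnrnpk, miR-92a-3p, coding exon, chr13:58394122-58394127, minus strand: gaaacttgggattcTGCAATt
miR-92a-3p: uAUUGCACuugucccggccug

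Taken over all members, Ago clusters of hnRNP and SR genes held the smallest part of the cluster reads in Adult. From e12.5 to Adult, their summed level was 1569.9, 1671, 1016, 723 and 333 rpm. Scaled to the reads of clusters in mRNA regions (3′UTR, CDS and 5′UTR) it was 6738, 5631, 3384, 3533 and 2474, so on that scale e12.5 was the highest library and P7 was not below e18.5. The number of their clusters was 609, 309, 210, 273 and 167 in the same order, which was 0.411% of the clusters listed for any gene at e12.5 and 0.244% in Adult. The embryonic counts join 2 lists of sites each, while P7 and Adult have 1, and from e12.5 to e18.5 the first lists alone held 216, 50 and 127 member clusters and the second lists 527, 289 and 121, so the counts of clusters cannot be read as a course over the stages. A large part of the reads came from 1 place, an intron of Hnrnpk at chr13:58392802-58392861 that holds the gene of miR-7a-1 (listed as Mir7-1). Without the clusters listed for miR-7a, the summed level was 1209.5, 1364, 909, 644 and 214 rpm. The level scaled to mRNA regions above also held these clusters, and without them it was 5191, 4594, 3028, 3146 and 1589. The e12.5 library was the highest for 13 members, e15.5 for 12, e18.5 for 4 and P7 for 2, and Adult for none, as the plot of levels shows. The same counts were not made over all genes, so they do not show a trait particular to the members.

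**Figure D1:**
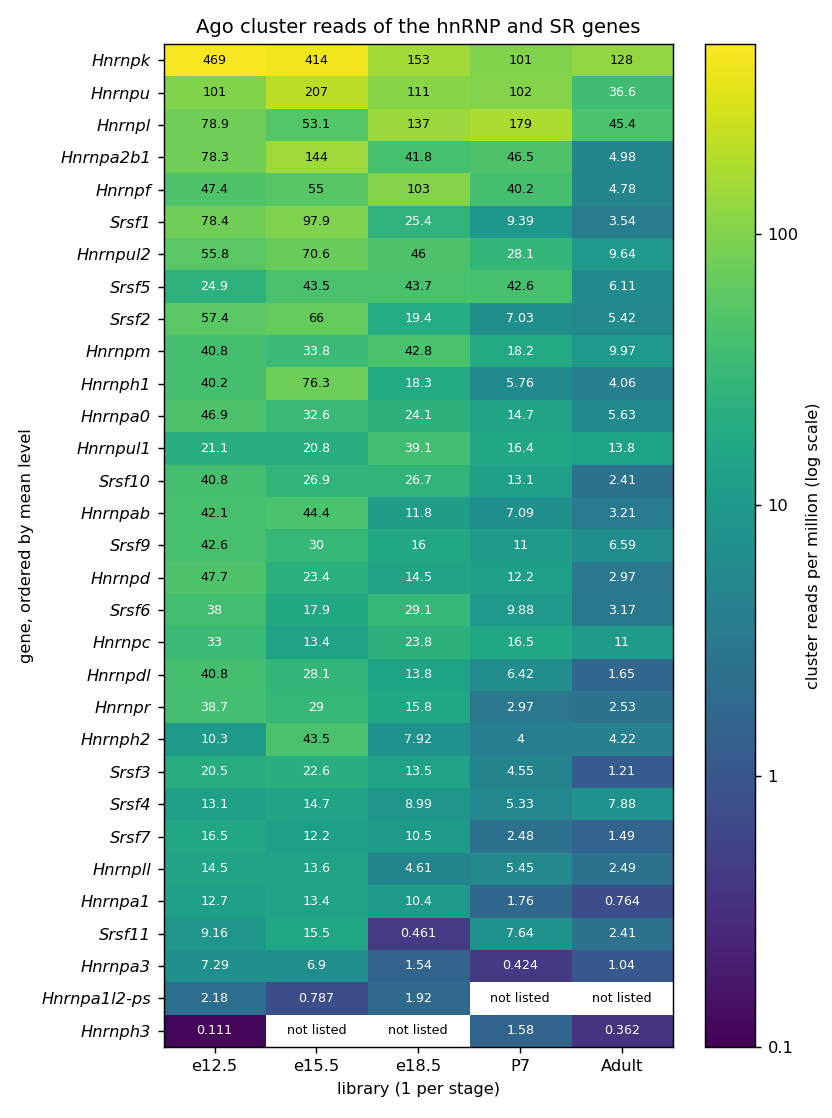
Cluster reads in rpm (numbers and colour, log scale) of the 31 genes in the 5 libraries, with genes ordered by their mean level. The Adult column is the lowest for 24 of the 31 genes, a count not made over all genes, and white cells mark genes not listed in a library.

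Between e12.5 and Adult nearly every member was lower in the later library. Of the 29 members listed in both with at least 50 summed reads in either, 26 were lower by 2-fold or more in Adult and none was higher by 2-fold or more. Over all 11273 genes compared, 55.7% were lower and 17.0% higher by 2-fold or more. The median log2 ratio was -3.06 for members and -1.29 for all genes. When levels were scaled to mRNA regions, the median of all genes moved to -0.50 and that of members to -2.27, with 23 members lower against 39.9% of all genes, and none higher against 25.1%. Counted as clusters, scaled to all clusters of a library, in place of reads, 10 members were lower against 15.2% of all genes, and none was higher against 34.2%. The medians on that scale were -0.38 for members and 0.36 for all genes, so the size of the difference depended on whether reads or clusters were counted. The summed erythroid markers moved in the same direction between these libraries, from 66824 to 1639 rpm, and their part in the result was not tested.

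**Figure D2:**
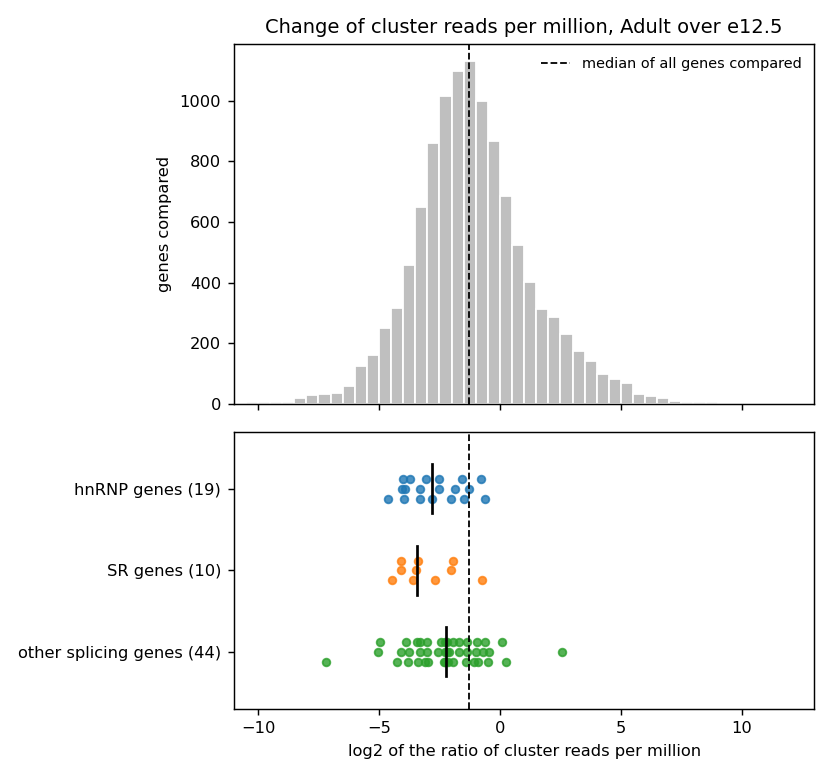
The upper panel counts the 11273 genes compared by their log2 ratio of cluster reads in rpm, Adult over e12.5, with their median dashed. The lower panel gives each of the 19 hnRNP genes, 10 SR genes and 44 other splicing genes as a point, and short bars mark the group medians, which all lie left of the dashed line.

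The 2 lists of sites that the e12.5 table holds give a measure of how far values differ without any change of stage. The labels do not say what the lists are, and whether they are the replicates of the methods, or the second e18.5 library is among them, is not stated. Of 30 members with reads in both e12.5 lists, 13 differed between them by 2-fold or more, with a median absolute log2 ratio of 0.93. Over the 10662 genes compared in the same way that median was 1.19, and the share past 2-fold was not counted. The median log2 ratio, second list over first, was -0.62 for members and -0.95 for all genes. With the first list alone the median log2 ratio, Adult over e12.5, was -3.36 for members and -2.10 for all genes, and with the second alone it was -2.71 and -0.97.

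The SR genes as a group stood at 341, 347, 194, 113 and 40.2 rpm from e12.5 to Adult. Of the 10, 9 were lower by 2-fold or more in Adult than at e12.5, with a median log2 ratio of -3.44, where 55.7% of all genes were lower. Srsf1, the founding SR protein, had levels of 78.4, 97.9, 25.4, 9.39 and 3.54 rpm from e12.5 to Adult. It was high in the libraries of e12.5 and e15.5 and already low at P7, and its log2 ratio of -4.47 was the second lowest of all members. Srsf2, which also binds exonic enhancers, followed a like course, with 57.4, 66.0, 19.4, 7.03 and 5.42 rpm. Srsf3, the smallest of the SR proteins and known in hepatocytes, had 20.5, 22.6, 13.5, 4.55 and 1.21 rpm and a log2 ratio of -4.09. Srsf10, which represses splicing when dephosphorylated, had 40.8, 26.9, 26.7, 13.1 and 2.41 rpm and a log2 ratio of -4.08. For Srsf3 76.6% and for Srsf10 55.0% of listed sites carry a target sequence that is also listed at another place in the genome.

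A pair of SR genes departed from this course. Srsf5 stood at 24.9, 43.5, 43.7, 42.6 and 6.11 rpm, so that it held nearly 1 level from e15.5 to P7 and was lowest in Adult. Srsf4 had 13.1, 14.7, 8.99, 5.33 and 7.88 rpm, and its log2 ratio of -0.73 did not reach 2-fold. Srsf11 was listed with 6 reads in a single cluster at e18.5, which makes its level there, 0.461 rpm, rest on almost nothing. Srsf6, Srsf7 and Srsf9 had log2 ratios of -3.58, -3.48 and -2.69.

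Among the hnRNP A/B genes, all 5 were lower in Adult by 2-fold or more, with a median log2 ratio of -3.71, beside the same 55.7% of all genes. Hnrnpa2b1, whose protein also sorts RNA and reads RNA modifications, had 78.3, 144, 41.8, 46.5 and 4.98 rpm from e12.5 to Adult. Its level peaked at e15.5 and, in fold, differed most between the neighbouring libraries of P7 and Adult. Hnrnpa1, which represses exons and competes with SR proteins, had 12.7, 13.4, 10.4, 1.76 and 0.764 rpm and a log2 ratio of -4.05. For Hnrnpa1, 92.7% of the listed sites carry a target sequence that is also listed at another place in the genome, and for Hnrnpa3 85.5%, so reads of these genes and of near-identical copies may not be separable. Over all members the share was 27.8%, and over all genes 13.5%.

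The hnRNP D genes had the lowest median log2 ratio of the role groups, -4.32. Hnrnpdl, a paralog of the AU-rich element binding protein hnRNP D, had 40.8, 28.1, 13.8, 6.42 and 1.65 rpm, and its log2 ratio of -4.63 was the lowest of all members. Hnrnpd itself had 47.7, 23.4, 14.5, 12.2 and 2.97 rpm. Hnrnpr, which binds mRNA in cytoplasm and nucleus, had a log2 ratio of -3.93.

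The F/H genes encode proteins that bind G-rich runs. Hnrnpf had 47.4, 55.0, 103, 40.2 and 4.78 rpm, with its highest level at e18.5. Hnrnph1 had 40.2, 76.3, 18.3, 5.76 and 4.06 rpm, high in the first 2 libraries and low after birth. Hnrnph2, an X-linked relative of Hnrnph1, had 43.5 rpm at e15.5 and 10.3 or less in each other library, and its log2 ratio from e12.5 to Adult was -1.29. For Hnrnpf 84.0% and for Hnrnph2 82.6% of listed sites carry a target sequence listed elsewhere too.

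Hnrnpk, a poly(C) binding protein, had the highest mean level of all members, with 469, 414, 153, 101 and 128 rpm. Between 69.7% and 93.2% of these reads belonged to the miR-7a intron. Without it Hnrnpk had 108, 107, 46.4, 22.2 and 8.64 rpm, which was highest at e12.5 and lowest in Adult. The share of miR-7a-5p among the numbers that the tables attach to miRNAs, taken here as their read counts, was 0.118%, 0.0975%, 0.0368%, 0.0198% and 0.0209% in the same order.

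The smallest differences from e12.5 to Adult were those of Hnrnpul1, Srsf4, Hnrnpl, Hnrnph2 and Hnrnpu. Hnrnpl, a reader of CA-rich elements, was at 78.9, 53.1, 137, 179 and 45.4 rpm, and P7 was its highest library. Hnrnpul1, which acts in RNA export and DNA repair, was at 21.1, 20.8, 39.1, 16.4 and 13.8 rpm. The log2 ratios of these genes were -0.80 and -0.62, and under scaling to mRNA regions they became -0.00 and 0.17. Hnrnpu, a nuclear scaffold protein, had 101, 207, 111, 102 and 36.6 rpm, so its first 4 libraries lay at or above 101 and Adult below. Its relative Hnrnpul2 had 55.8, 70.6, 46.0, 28.1 and 9.64 rpm. Hnrnpm and Hnrnpc had log2 ratios of -2.03 and -1.59. Of the 16 members in which under 10% of sites are listed elsewhere too, 13 were lower by 2-fold or more, with a median of -2.62, and of the 13 others compared, 13 were lower, with a median of -3.31.

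Between e18.5 and P7, where the antibody also differed, members stood closer to all genes. Of 28 members compared, 13 were lower by 2-fold or more at P7 and 1 was higher, beside 37.4% lower and 18.9% higher of 10510 genes. The median log2 ratios were -0.87 and -0.54. Scaled to mRNA regions, 6 members were lower and 1 higher beside 24.7% and 27.1% of all genes, and counted as clusters 3 were lower and 1 higher beside 11.7% and 17.7%. The gene that was higher was Srsf11, whose e18.5 level rests on 6 reads. Hnrnpa1, Hnrnpr and Srsf7 had the lowest log2 ratios, -2.56, -2.41 and -2.08. Hnrnpl, Hnrnpll and Hnrnpa2b1 were the other members with a ratio above 0, at 0.38, 0.24 and 0.15. With the second e18.5 list alone, the median of all genes was 0.37 and that of members -0.34.

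For comparison, 45 other splicing genes were looked up and all were listed at e12.5. Of the 44 compared between e12.5 and Adult, 35 were lower and 1 was higher by 2-fold or more, with a median log2 ratio of -2.23, beside 55.7% lower and 17.0% higher of all genes. Scaled to mRNA regions, 28 were lower and 2 higher, beside 39.9% and 25.1%. All 11 hnRNP proteins under other symbols were lower, with a median of -3.01. Raly, a close relative of hnRNP C, was at 83.0 rpm at e12.5 and 2.53 in Adult, and Ptbp1, the polypyrimidine tract repressor, was at 50.3 and 4.78. Of the 12 core spliceosome genes 9 were lower, of 8 kinases and importers 6, of 7 SR-related genes compared 5, and of 6 tissue regulators 4, the last of these counts being close to the share over all genes. The gene that was higher was Esrp2, an epithelial splicing regulator of postnatal hepatocytes, at 1.25, 2.06, 0.384, 6.79 and 7.35 rpm from e12.5 to Adult.

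The clusters of hnRNP and SR genes lay mostly in coding sequence. A cluster can be listed under several regions when transcripts differ, so the shares below add to more than the whole. At e12.5, 53.5% of member clusters (Wilson 95% interval 49.6 to 57.5, 326 of 609) were listed under CDS, beside 39.4% of all clusters listed for genes. In Adult the share was 72.5% (65.2 to 78.7, 121 of 167), beside 57.0%. The 3′UTR share was 39.9% (36.1 to 43.8) at e12.5 and 25.7% (19.7 to 32.9) in Adult, beside 26.6% and 23.2% of all clusters. Clusters listed under introns only made up 4.76% to 10.3% of member clusters over the 5 libraries, beside 16.3% to 29.4% of all clusters. These intervals cover counting error only, as the reads carry no molecular identifiers and the clusters are not independent.

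**Figure D3:**
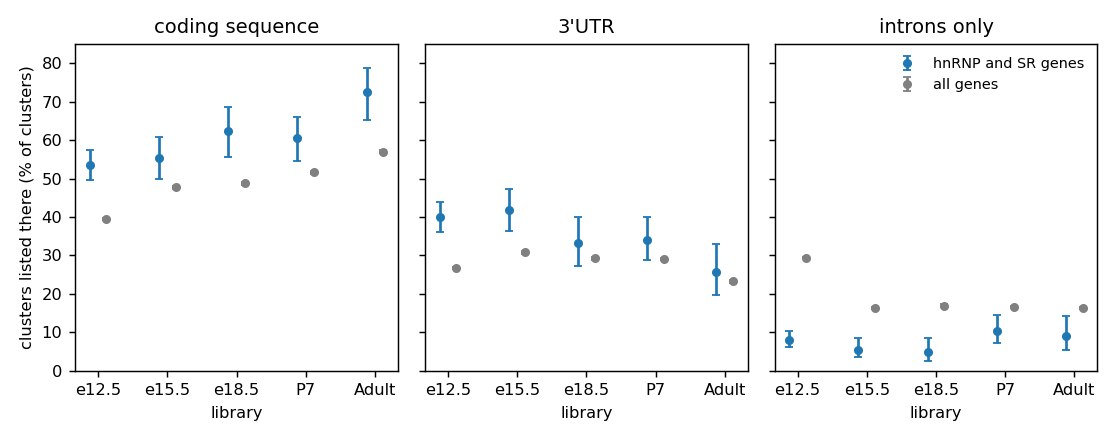
Share of clusters listed under CDS, 3′UTR or introns only, for the hnRNP and SR genes (blue) and all genes (grey) in the 5 libraries. Bars are Wilson 95% intervals, which cover counting error only. The CDS share of members was above that of all genes in each library, and the share in introns only was below it.

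The genes differed among themselves in where Ago was found. Over the 5 libraries, Hnrnpu had 87 CDS and 35 3′UTR clusters, Hnrnpk 60 and 43, and Hnrnpm 47 and 7. Srsf1 had more clusters in the 3′UTR, 44, than in CDS, 25, as did Srsf10 with 31 and 10, Srsf3 with 24 and 11, Hnrnpdl with 33 and 24, Hnrnpa0 with 30 and 23, and Hnrnpa3 with 12 and 5.

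Joined over the libraries, member clusters formed 916 regions, of which 582 were found in 1 library, 174 in 2, 80 in 3, 53 in 4 and 27 in all 5. The 27 are 2.95% of the member regions, and 1.47% of the 307117 regions of all genes were found in all 5 libraries. When an overlap of 20 bases was required, 16 member regions were found in all 5. The 12 with the highest mean level fell into those that were highest at e12.5 or e15.5 and those that were highest at e18.5 or P7, as the plot of these regions shows.

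**Figure D4:**
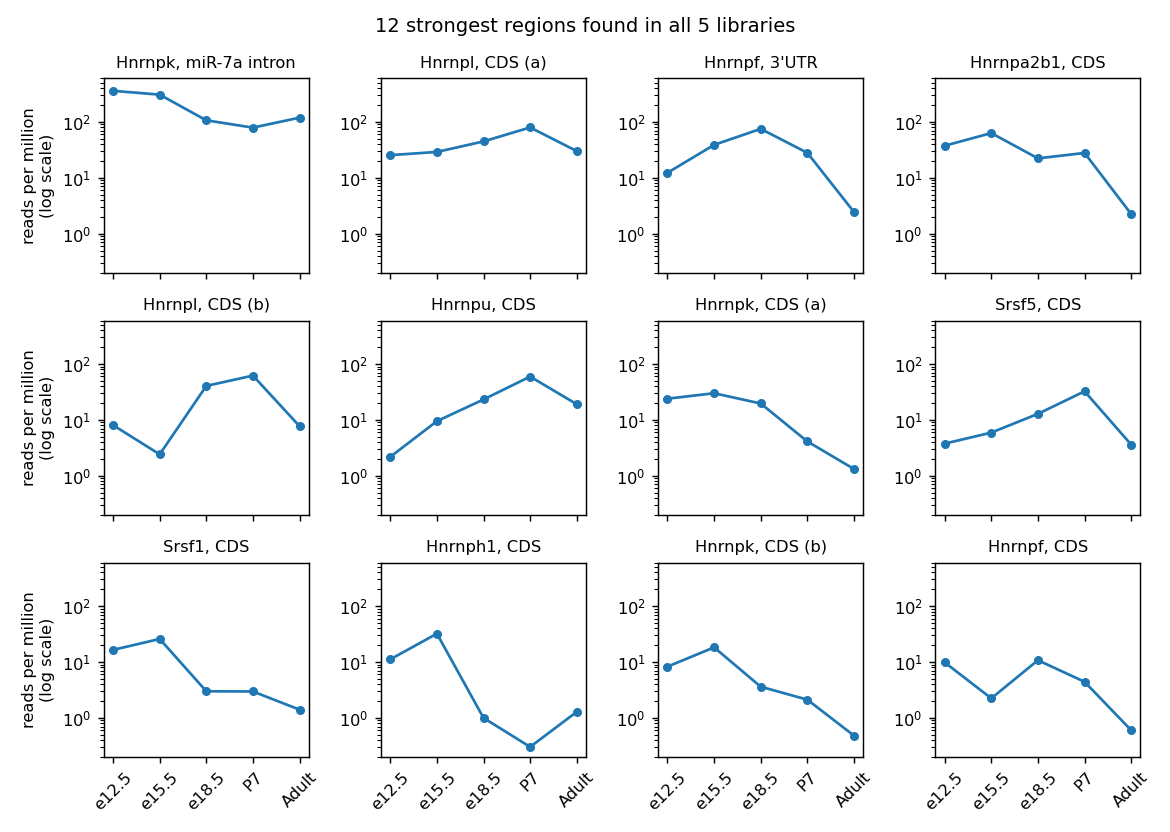
Cluster reads in rpm (log axis) in the 5 libraries for the 12 regions found in all libraries with the highest mean level; (a) and (b) tell regions of 1 gene apart. The Hnrnpu, Srsf5 and both Hnrnpl regions have their highest point at P7, and those of Hnrnpk, Srsf1 and Hnrnph1 at e12.5 or e15.5.

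The strongest region outside the miR-7a intron was in Hnrnpl, in exon 9 of 12 of the transcript Hnrnpl-209, at chr7:28820623-28820667. From e12.5 to Adult it had 25.5, 29.1, 44.8, 79.7 and 30.1 rpm, and the miR-122-5p match shown above was listed in it in every library. P7 was 3.13 times e12.5, and Adult was back near the e15.5 value. miR-122-5p made up 1.44%, 4.33%, 9.20%, 12.3% and 11.2% of the miRNA numbers in the same order. A seed match of miR-146a-5p overlaps the same stretch and was listed in all 5 libraries too, and the tables do not tell which miRNA held Ago there. The exon is coding in Hnrnpl-209, and the same bases are UTR in an annotated NMD transcript. A second Hnrnpl region, in exon 3 at chr7:28813950-28814043, had 8.07, 2.42, 40.6, 62.1 and 7.72 rpm, high at e18.5 and P7 only.

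The Hnrnpu region at chr1:178329868-178329938, in exon 13 of 14 of Hnrnpu-201, had 2.18, 9.50, 23.2, 59.6 and 19.1 rpm, so P7 was 27.3 times e12.5 while the gene as a whole hardly differed between these libraries. It holds the match of miR-125b-5p, miR-125a-5p and miR-351-5p, which share a seed, in all 5 libraries, with a conservation score of 1. miR-125b-5p made up 0.257%, 0.268%, 0.436%, 2.04% and 1.98% of the miRNA numbers. The Srsf5 region at chr12:80946646-80946710, in exon 2 of 8 of Srsf5-202, had 3.77, 5.93, 12.8, 32.5 and 3.62 rpm and held matches of miR-26a-5p and miR-26b-5p in all 5 libraries. Of its 17 target sequences, 8 were listed elsewhere too, in Gm12966. An 8mer of miR-127-3p in the same region was also listed in all 5, with 536 reads at P7 and 90 in Adult, where that miRNA made up 1.09% and 0.011% of the numbers.

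Of the 12 regions, 5 were highest at e15.5. Srsf1 at chr11:88049080-88049208, in exon 3 of 5 of Srsf1-202, had 16.5, 25.8, 3.00, 2.97 and 1.41 rpm and held the miR-30 match, shared by 5 miRNAs of that family, in all libraries but e18.5. Hnrnpa2b1 at chr6:51466632-51466697, in exon 5 of 12 of Hnrnpa2b1-203, had 37.5, 63.2, 22.3, 27.9 and 2.25 rpm and held the 8mer of miR-27a-3p and miR-27b-3p in all 5 libraries. The same target sequence was listed with more reads at 1 other place, in the pseudogene Gm5778 (3437 against 1309 at e12.5, 152 against 56 in Adult), so part of these reads may belong to either copy. Hnrnph1 at chr11:50384650-50384719 had 11.2, 32.1, 0.999, 0.303 and 1.29 rpm. Hnrnpk at chr13:58394110-58394154 had 24.0, 30.03, 19.7, 4.12 and 1.33 rpm, and held the match shared by miR-25-3p and miR-92a-3p in all 5, with 3 of 10 target sequences listed elsewhere too. A further Hnrnpk region at chr13:58395595-58395669 had 8.27, 18.3, 3.61, 2.12 and 0.482 rpm, and all 15 of its target sequences were listed elsewhere too.

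The strongest region listed under 3′UTR alone was that of Hnrnpf at chr6:117925457-117925546, in its last exon, with 12.3, 38.9, 75.2, 28.0 and 2.45 rpm. Its 8mer of miR-144-3p, a miRNA of red cell precursors, was listed in every library but Adult. miR-144-3p made up 21.7%, 10.2%, 9.58%, 1.97% and 1.54% of the miRNA numbers. The same target sequence was listed at 4 other places in the genome, and all 4 had an entry with its read number in each of these libraries. That number was 233, 44, 706 and 457 from e12.5 to P7, and the highest number at the other places was 320, 598, 706 and 457, so the reads of this site could not be assigned to Hnrnpf alone. All 26 target sequences of this region were listed elsewhere too, while none of those in the Hnrnpu and Srsf1 regions or in either Hnrnpl region was.

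The sites under Ago in these genes were more often conserved than those of other genes. Of 1659 distinct 3′UTR sites of members, 70.9% (Wilson interval 68.7 to 73.0) had a conservation score of 0.9 or more, on a scale from 0 to 1, beside 30.9% of all 3′UTR sites. A site counts as 3′UTR when any transcript lists it there, for members and all genes alike. Some of these sites are coding in another transcript, and the effect on either share was not tested. In CDS the shares were 83.2% (81.7 to 84.7) of 2499 sites and 58.1%. Sites in introns only had a share of 9.88% (7.12 to 13.6) for members and 5.88% for all genes. The 3′UTR share of members lay between 66.3% and 73.1% in every library. Sites within a gene share their neighbourhood, so these intervals are narrower than the spread between genes.

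**Figure D5:**
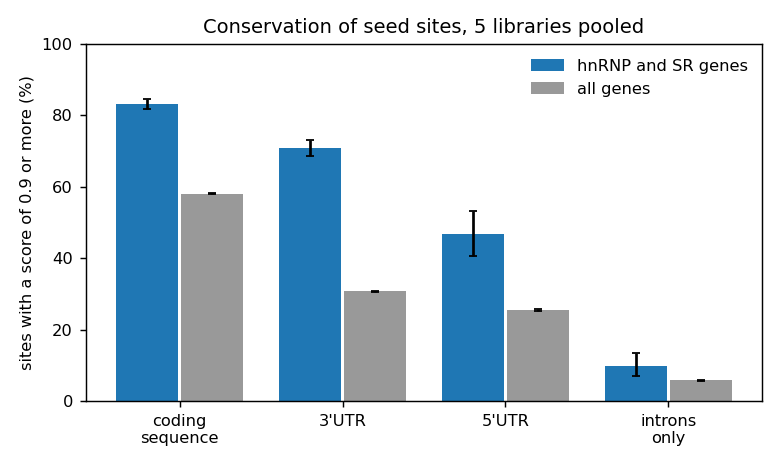
Share of distinct seed sites with a conservation score of 0.9 or more, pooled over the 5 libraries, for hnRNP and SR genes (blue) and all genes (grey). Error bars are Wilson 95% intervals and cover counting error only. The gap was widest for sites listed under 3′UTR by any transcript, 70.9% against 30.9%. Some of these sites are coding in another transcript.

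Of 25 members with at least 20 distinct 3′UTR sites, 23 had over 50% of them at a score of 0.9 or more. The same count was not made over all genes. Hnrnpa2b1 and Hnrnpf had 92.5% each and Hnrnpr 92.3%. Hnrnpul2, with 44.1%, and Hnrnpa3, with 28.9%, were the lowest. The SR genes ranged widely, from 53.3% for Srsf6 to 87.5% for Srsf11 among those with as many sites.

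Clusters in introns and in exons of noncoding transcripts were few. Of 110 member clusters listed under introns only, outside the miR-7a place, 13 (11.8%, Wilson interval 7.04 to 19.2) overlapped an exon of some transcript of the gene in GENCODE M21, beside 2.46% of 90648 such clusters of all genes. By the middle of the cluster, 91.3% of 1560 pairs of a cluster and a protein-coding member lay in an exon of a protein-coding transcript, beside 76.4% for all protein-coding genes. A further 4 lay in exons of NMD transcripts and of no protein-coding one, all in SR genes, with 3 in Srsf4 and 1 in Srsf6. The Srsf6 cluster, at chr2:162933022-162933034, had 27 reads at e12.5, and the Srsf4 clusters had 21 and 26 reads at e12.5 and 27 in Adult. Each of these had a conservation score of 1 throughout. Another 24 clusters lay in exons of retained-intron or processed transcripts only, 7 of them in Srsf5, with 7 to 43 reads. In SR genes these were 0.941% (NMD transcripts) and 3.29% (other noncoding transcripts) of 425 clusters, beside 0.151% and 1.01% for all protein-coding genes. In hnRNP genes they were 0 of 1135 clusters (Wilson interval up to 0.337%) and 0.881%, and over all members 0.256% and 1.54%, with so few reads that no course over the stages could be read from them.

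In the 3′UTRs, 271 of 578 member clusters summed over the libraries (46.9%, Wilson interval 42.9 to 51.0) held a seed match of at least 1 of the 100 most abundant miRNAs of their library. The share for all 3′UTR clusters was 47.7%, so members did not stand apart in this. Clusters counted here are those that any transcript lists under 3′UTR, and some are coding in another transcript. The seeds described next are the 10 found in most member clusters, a choice that favours seeds above the rest, and a seed was counted only in libraries where its miRNA is among these 100. The seed of miR-144-3p was in 33 clusters (5.71%) of 13 members, beside 2.34% of all 3′UTR clusters, and that of miR-101b-3p, which shares most of its bases, was in 29 (5.02%), beside 2.37%. The seed of miR-409-3p was in 10 (1.73%), beside 0.296%, and that of miR-200b-3p, miR-200c-3p and miR-429-3p in 12 (2.08%), beside 0.473%. miR-186-5p was in 15 (2.60%), beside 1.28%, and miR-19a-3p and miR-19b-3p in 11 (1.90%), beside 1.43%.

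For the other leading seeds the members were close to or below the rest. miR-122-5p was in 14 clusters (2.42%) of 4 members, beside 1.96%, and miR-26a-5p and miR-26b-5p in 14 (2.42%), beside 2.01%. The miR-122-5p clusters include the Hnrnpl site printed above as coding, which was listed in 5 libraries, and the share without it was not computed. The seed of miR-30a-3p and miR-30e-3p was in 10 (1.73%), beside 1.67%, and that of miR-103-3p and miR-107-3p in 11 (1.90%), beside 2.99%. Outside the 10, and picked after their values were seen, the seed of miR-15a-5p and miR-16-5p was in 6 (1.04%), beside 3.46%, that of miR-27a-3p and miR-27b-3p in 9 (1.56%), beside 3.03%, and that of miR-673-5p in 8 (1.38%), beside 2.65%. From e12.5 to Adult, miR-144-3p clusters were 9 of 243, 10 of 129, 5 of 70, 9 of 93 and 0 of 43, and in the last a count of 0 allows a share of up to 6.98%. The same region can count in several libraries, so these clusters are not independent.

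The strongest 3′UTR sites of other families lay in further members. For miR-19b-3p, a miRNA of the oncogenic cluster that also encodes miR-92a, the site with the most reads was an 8mer in the last exon of Hnrnpul2, with 208, 216 and 41 reads in the 3 embryonic libraries, and it was not listed after birth. For miR-409-3p it was in the last exon of Hnrnpa2b1, with 200 and 172 reads in the first 2 libraries, and it was not listed later. miR-409-3p made up 0.124% and 0.175% of the miRNA numbers at these stages and 0.000502% in Adult. For miR-26a-5p it was in Hnrnpa0, with 132 reads at P7 and 41 in Adult. These sites are printed below because they have the most reads of their seed among the 3′UTR sites of members.
Hnrnpul2, miR-19b-3p, 3′UTR, chr19:8831806-8831812, plus strand: aatcaaaaaaaccgTTTGCACA
miR-19b-3p: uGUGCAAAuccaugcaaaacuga
Hnrnpa2b1, miR-409-3p, 3′UTR, chr6:51463070-51463076, minus strand: aatAACATTA
miR-409-3p: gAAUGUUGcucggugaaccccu
Hnrnpa0, miR-26a-5p, 3′UTR, chr13:58126243-58126249, minus strand: agaattctgcagACTTGAA

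Outside Hnrnpl, no miR-122-5p match in members was above 8.30 rpm in any library. Of 11 matched positions in members, the Hnrnpl one was listed in 5 libraries, an intronic one of Srsf9 in 4 and an 8mer in the last exon of Hnrnpu in 3. The Hnrnpu 8mer, at chr1:178328873-178328879 with a conservation score of 1, had 96, 69 and 129 reads at e15.5, P7 and Adult, which were 5.81, 4.18 and 5.18 rpm. The Srsf9 match had 1.72, 1.45, 8.30 and 3.13 rpm at e12.5, e15.5, P7 and Adult, and a conservation score of 0.009. Its 137 reads at P7 and 78 in Adult stood beside 181 and 164 for Srsf9 as a whole, so much of that gene's level there lay at this place. The other positions were each listed in 1 or 2 libraries, at no more than 2.90 rpm.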

How the data were processed

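Ago HITS-CLIP was done on mouse liver of 5 stages, with 1 table per stage. Per the study's methods and the labels, the authors trimmed the reads, mapped them with Bowtie (the submitters' processing notes name mm9 and mm10), grouped them into clusters, annotated these and scanned them for seed matches of mouse miRNAs. The read number deposited by the authors is a signal, in whole numbers of at least 5 that were not scaled to depth. It is named as that of the target at e12.5 and that of the peak elsewhere. The conservation score deposited by the authors runs from 0 to 1, and its method is not given in the sources used here.

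A cluster was a peak number within a list, with the span of its sites as extent and the highest read number of its entries, since the tables give no start and end for clusters. The embryonic tables hold 2 lists each, which were joined where clusters overlapped on the same strand, with read numbers added. Genes were compared when listed in both libraries with at least 50 summed reads in either, and called at 2-fold. All 5407 distinct target sequences of members were found in GRCm38 at the listed position. Exons were those of GENCODE M21, and 43 of 51 mature miRNAs looked up were found in RefSeq (GRCm38.p6). Target sequences of 16 bases or more were searched for at other listed places over 1000 bases away. Levels were named for the 10 members with the highest mean, those with the 5 smallest and 5 largest differences, and further ones by role. Named regions were the 12 with the highest mean level among those found in all 5 libraries, and named miRNAs the 10 seeds in most member 3′UTR clusters. Of the 29 members compared, none had a higher rpm in Adult than at e12.5, so the smallest falls took the place of rises. The members and the gene lists were chosen with earlier results of these data known. The steps were tested on simulated data for Adult against e12.5 with 3000 genes, in which 76 of 76 genes raised and 65 of 69 lowered by 4-fold were called, and 0 of 1984 unchanged ones. The simulated reads varied by Poisson counting error only, and their ratios were centred on the unchanged genes, which was not done with the data. These counts check the steps and give no error rate for the 2-fold call. Python 3.11.15, pandas 2.3.3, numpy 2.4.6, bedtools 2.31.1, pysam 0.24.0 and matplotlib 3.10.9 were used. With 1 table per stage, no test across genes was made.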

Additional observations from a re-analysis of the deposited data

How the results depend on the processing

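No paired analysis was possible because the labels give each stage 1 sample. The summed level of members at e12.5 was 1861 rpm with the first list alone, 1426 with the second, 1209.5 from clusters listed for members alone or without those of miR-7a, 1037 scaled to the total reads of the study, 905 without the strongest cluster of each gene and 6738 scaled to reads in mRNA regions. In Adult it was 326 with a minimum of 10 reads, 214 from clusters listed for members alone or without those of miR-7a, 272 scaled to total reads, 138 without the strongest clusters and 2474 scaled to mRNA regions. The mRNA scaling and the removal of miR-7a were chosen after seeing the data. The first list alone gave 216 member clusters at e12.5, and the second list alone a CDS share of 57.5%. Counting clusters left 10 members lower in Adult, and with no filter on reads 1 was higher, Hnrnph3, from 0.111 to 0.362 rpm. At P7 against e18.5, 6 members were lower with the second list alone, scaled to total reads or to reads in mRNA regions, and 3 by clusters, while 0 were higher with a minimum of 10 reads and 2 with the second list. At a score of 0.5, 83.3% of 3′UTR and 97.5% of CDS sites of members were conserved. With at least 7 matched bases, 35.8% of 3′UTR clusters held a match of the 100 most abundant miRNAs, and with all miRNAs 100%, since the tables list only clusters with a match. An overlap of 20 bases left 16 regions in all 5 libraries. The cause of these shifts was not tested. Weak members lay near the lowest read number listed, such as Hnrnph3 with 5 reads at e12.5 and Srsf11 with 6 at e18.5.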
